A study of Mus musculus with 8 samples.

Results

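β-cells with a high content of metallothionein mRNA were examined among islet cells of 8-week-old male C57BL/6J mice. The cells were chosen by their measured UMI counts (unique molecular identifiers, 1 for each captured mRNA molecule) of Mt1 and Mt2. A β-cell was a cell with at most 3000 genes and 20000 UMIs, at least 20% of its UMIs from Ins1 and Ins2, and under 5% each from Gcg, Sst and Ppy. The Mt-high β-cells were the top 25% of each sample in Mt1 plus Mt2 UMIs per UMI other than Ins1 and Ins2, with at least 2 Mt1 or Mt2 UMIs. Of 1240 cells in the series, 1232 were within the limits on genes and UMIs, 923 were β-cells and 224 of these were Mt-high. They were compared with the 299 β-cells that had 0 Mt1 and Mt2 UMIs and at least 3000 UMIs, called Mt-0 here. The other 400 β-cells belonged to neither set.

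The study profiled islet cells of 4 control samples and of 4 samples taken 2 days after removal of 50% of the pancreas (partial pancreatectomy, PPTx), an operation that activates β-cell replication. Control mice had no operation, so the effects of surgery and of tissue loss cannot be told apart. Each sample pooled the islets of 1 to 3 mice, and no transgene or drug is named for either group. The p-values of the permutation tests below measure the spread between these pooled samples. Those of the tests across genes estimate this spread partly from other genes. A gene that varies much between samples can therefore still pass.

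Metallothioneins are small cysteine-rich proteins that bind zinc and copper. Their genes are switched on through metal response elements by the zinc sensor MTF1, and also by glucocorticoids and oxidative stress. β-cells are rich in zinc, which the transporter ZnT8 (Slc30a8) carries into insulin granules, whereas ZnT1 (Slc30a1) carries zinc out of the cell. Mt1 and Mt2 are neighbouring paralogs, so the split of UMIs between them is uncertain where reads match both.

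RefSeq (GRCm38.p6) places Mt2 at chr8:94172618-94173567 and Mt1 at chr8:94178883-94180327, both on the plus strand. The RefSeq promoter table gives 250 bases before a start for each gene, and these are shown for the 2 genes that chose the cells. The start of the Mt2 entry is the start of the gene. That of the Mt1 entry, 94179089, lies inside the annotated gene, so 44 bases of the Mt1 window precede the gene and 206 lie within it. Capitals mark the core of the metal response element, searched as TGCACNC and TGCGCNC on both strands.
Mt1, chr8:94178839-94179088, plus strand: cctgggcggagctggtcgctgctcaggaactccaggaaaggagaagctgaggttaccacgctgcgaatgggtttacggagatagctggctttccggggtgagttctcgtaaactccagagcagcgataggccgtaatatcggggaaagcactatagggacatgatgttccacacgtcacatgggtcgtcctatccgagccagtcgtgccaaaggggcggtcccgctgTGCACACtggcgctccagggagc
Mt2, chr8:94172368-94172617, plus strand: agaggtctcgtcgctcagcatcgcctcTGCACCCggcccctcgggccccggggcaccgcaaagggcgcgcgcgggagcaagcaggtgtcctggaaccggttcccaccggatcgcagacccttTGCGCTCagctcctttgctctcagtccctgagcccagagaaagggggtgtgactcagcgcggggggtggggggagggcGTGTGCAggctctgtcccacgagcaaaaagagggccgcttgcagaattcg
The Mt1 window held 1 core, within the annotated gene and 23 to 17 bases before the start of its entry. The Mt2 window held 3 cores, 2 on the strand of the gene and 1 on the opposite strand. Among 32851 promoters of the same length, 21.4% held at least 1 core and 1.26% at least 3. The windows hold no TATAAA, and little of the sequence upstream of the annotated Mt1 gene is in them, so cores outside the windows were not searched.

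Cell number and depth varied between samples. The files held 66 to 294 cells and 236645 to 1580152 UMIs per sample, and 1 barcode occurred in more than 1 sample. Mt-high cells numbered 14, 19, 31 and 29 in control replicates 1 to 4 and 25, 48, 26 and 32 in PPTx replicates 1 to 4. Mt-0 cells numbered 5, 18, 42 and 40 and 37, 88, 30 and 39, so the Mt-0 set of control replicate 1 rests on 5 cells. The median Mt-high cell of a sample had 3118.5 to 9550 UMIs and the median Mt-0 cell 3442 to 11369.5, and 27 Mt-high cells had fewer than 3000. Insulin mRNA took 51.3 to 62.4% of the UMIs in the Mt-high and 51.9 to 64.4% in the Mt-0 sets.

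The choice of cells fixed the following levels, given as a description. Levels are counts in 1000000 UMIs (CPM), here of the UMIs other than insulin. Mt1 and Mt2 together were at 5401, 5378, 3713 and 5526 CPM in the Mt-high cells of control replicates 1 to 4. In PPTx replicates 1 to 4 they were at 2114, 1355, 2320.3 and 2805. Every PPTx sample lay below every control sample, so the cells of both groups share a rank within their sample and not a level. Mt1 was at 2494 to 4016 CPM in control and 1020.1 to 2162 in PPTx, and Mt2 at 1219 to 1850.3 and 335 to 781. The median member held 7.50 to 13 Mt1 and Mt2 UMIs in control and 3 to 7 in PPTx samples, and the highest member of any sample held 58. The members held 55.1 to 77.6% of all Mt1 and Mt2 UMIs of the β-cells in their sample.

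The lower limit of membership differed between samples. The lowest member was at 3886, 2608, 1595 and 2385 CPM in control and at 868, 656, 1276 and 1126 in PPTx replicates 1 to 4. The highest β-cell outside the set was at 3531, 2593, 1588 and 2339 in control and at 846, 1131, 1113 and 1271 in PPTx. In PPTx replicates 2 and 4 this cell lay above the lowest member, because a cell with 1 Mt UMI is not a member at any share.

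Whether Mt1 and Mt2 were high in the same cells was tested by a choice that used Mt1 alone. Mt2 was then read out in the top 25% by Mt1 and in β-cells of 0 Mt1 UMIs. It was at 1291, 1207, 1134 and 1354 CPM in the Mt1-rich cells of control replicates 1 to 4, against 119.9, 46.4, 31.7 and 46.0 in the Mt1-free cells. In PPTx replicates 1 to 4 it was at 452, 298, 624 and 527 against 33.1, 30.2, 34.9 and 148. The levels did not overlap. The mean log2 ratio was 3.72 ± 1.07 (SD, n = 8), with Mt2 above the Mt1-free cells each time. An exact permutation of the signs gave p = 0.00781, the lowest value possible with 8 samples. The reverse choice, by Mt2 with Mt1 read out, gave 2.35 ± 0.57 (SD, n = 8; exact permutation test, p = 0.00781). All tests here are two-sided. Both a Mt1 and a Mt2 UMI were present in 84.2 to 90.3% of the Mt-high cells in control and in 46.9 to 76.9% of those in PPTx samples, which also held fewer Mt UMIs per cell.

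The metallothionein level of all β-cells of a sample was lower after PPTx. Mt1 and Mt2 together were at 2409.9, 2042, 1176 and 1570.4 CPM of non-insulin UMIs in the β-cells of control replicates 1 to 4. In PPTx replicates 1 to 4 they were at 729.5, 417, 754 and 921 CPM. The groups did not overlap. The means were 1799.6 ± 539 (SD, n = 4) and 705 ± 210.4 (SD, n = 4) CPM, a difference of -1094 (exact permutation test, p = 0.0286, the smallest that 4 samples against 4 allow). Mt1 alone was at 1284 ± 368 (SD, n = 4) and 522 ± 147 (SD, n = 4), and Mt2 alone at 515 ± 182 (SD, n = 4) and 184 ± 66.7 (SD, n = 4) CPM (exact permutation test, p = 0.0286 for each).

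**Figure D1:**
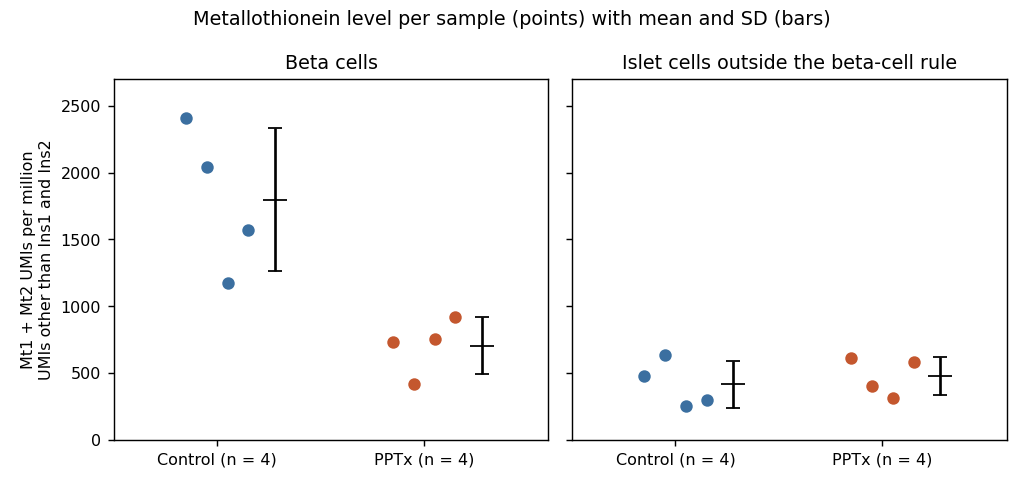
Mt1 plus Mt2 in CPM of UMIs other than Ins1 and Ins2 in control and PPTx samples, for β-cells and for the other islet cells. Each point is a sample, and the bars give mean and SD. The β-cells of control samples sit at 1176 to 2409.9 CPM, above the 417 to 921 of PPTx samples, whereas the groups overlap in the other islet cells.

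Islet cells outside the β-cell rule did not show this difference beyond their spread. Their level was 474, 638, 255 and 296 CPM in control and 610.0, 403, 313 and 583 in PPTx replicates 1 to 4, and the groups overlapped. The means were 416 ± 176 (SD, n = 4) and 477 ± 143 (SD, n = 4) CPM (exact permutation test, p = 0.629). β-cells exceeded these cells by 1384 ± 421 (SD, n = 4) CPM in control samples and by 228 ± 196 (SD, n = 4) CPM after PPTx. This contrast was added after the values were seen and differed by -1156 CPM (exact permutation test, p = 0.0286). RNA free in the droplets reaches all cells of a sample, and its part in these levels was not tested.

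The share of β-cells without any Mt1 or Mt2 UMI was compared at equal depth, with each cell of at least 3000 UMIs thinned to 3000. It was 25.0%, 34.3%, 50.4% and 50.5% in control and 62.8%, 64.5%, 47.5% and 53.1% in PPTx replicates 1 to 4. PPTx replicate 3 lay below 2 of the control samples. The means were 40.0% ± 12.6 (SD, n = 4) and 57.0% ± 8.08 (SD, n = 4), and these did not differ beyond the spread (by 16.9 points, exact permutation test, p = 0.114). In cells as sequenced the means were 27.9% and 39.2% (exact permutation test, p = 0.143). With cells thinned to 2000 UMIs, which leaves out fewer cells, the means were 46.3% and 66.0%, a difference between PPTx and control of 19.7 points (p of the exact permutation test = 0.0286).

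Against the Mt-0 cells of the same samples, the Mt-high β-cells held more mRNA of ferritin (Ftl1, Fth1), Sepw1 and Atf5, and less of endoplasmic reticulum (ER) chaperones, Dapl1, Gng12 and Pdyn. UMIs were summed per sample and set without the 7 genes of the rule and tested with edgeR with the sample as a block. Of 1626 genes tested, 143 (8.79%) passed an adjusted p of 0.05, of which 65 (4.0%) were higher and 78 (4.8%) lower in Mt-high cells. The median log2 fold change of all genes tested was 0.02. Of the 143 genes, DESeq2 called 93, with the direction kept in all 143. Without control replicate 3, the control sample with most UMIs, 79 genes were called and 76 of them were among the 143. Levels below are CPM of all UMIs but those of the 7 genes.

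Both genes of ferritin were called higher in Mt-high cells. Ftl1, which encodes the light chain of this cytosolic iron store, was at 1336, 1606, 829 and 866 CPM in the Mt-0 cells of control and at 1994, 2063, 857 and 1169.7 in those of PPTx replicates 1 to 4. In the Mt-high cells it was at 3523, 3106, 2284 and 2659 in control and 2826, 2874, 1791 and 2113 in PPTx. It was higher in 8 of 8 samples, although the ranges of the sets overlapped, with a log2 fold change of 1.01 ± 0.10 (SE, adjusted p = 1.99e-14). Fth1, the heavy chain, was at 3265, 1271, 1339.9 and 1505 in the Mt-0 and 2164, 1987, 1996 and 2494 in the Mt-high cells of control. In PPTx it was at 1133, 1148, 1241 and 1691 in the Mt-0 and 1564, 1566, 2127 and 2524 in the Mt-high cells. It was higher in 7 of 8 samples, all but control replicate 1, by 0.58 ± 0.09 (SE, adjusted p = 1.02e-06) on the log2 scale. Both ferritin genes have processed pseudogenes, so their counts carry some uncertainty. Of 9 genes of iron storage and uptake, 4 were tested and these 2 were called higher, beside 4.0% higher among all genes tested, while Pcbp1 (0.22) and Pcbp2 (0.17) were not.

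The 10 called genes with the largest increase in all 8 samples had several functions. Sepw1, a small selenoprotein, was at 82.7 ± 40.6 (SD, n = 8) CPM in Mt-0 and 213 ± 87.3 (SD, n = 8) in Mt-high cells, higher by 1.36 ± 0.25 (SE, adjusted p = 2.12e-05) on the log2 scale. Atf5, a transcription factor of the stress response, was at 126 to 297 CPM in the Mt-0 and 313 to 502 in the Mt-high sets, which did not overlap. Its log2 fold change was 1.05 ± 0.17 (SE, adjusted p = 1.02e-06). Camk2n1, an inhibitor of CaM kinase II, was higher by 1.01 ± 0.13 (SE, adjusted p = 1.19e-09) and Glul, the glutamine synthetase, by 0.83 ± 0.15 (SE, adjusted p = 7.65e-06) on the log2 scale. Mlxipl encodes ChREBP, a glucose-responsive transcription factor, and was higher by 0.68 ± 0.15 (SE, adjusted p = 0.000534). The palmitoyltransferase Zdhhc2 (1.22), the amyloid precursor gene App (1.07), Adi1 of methionine salvage (0.97) and the chromatin remodeller Smarca4 (0.75) complete the 10 with Ftl1. Of these genes, Mlxipl was not called with cells thinned to 3000 UMIs (0.43, adjusted p = 0.236). Nor was Adi1 with the sets chosen on thinned cells (0.57, adjusted p = 0.121), or Smarca4 without the filter on low counts (0.64, adjusted p = 0.147). In the alternatives that gave them an adjusted p, 4 genes kept their call at a smaller lowest value. Zdhhc2 was at 0.66 to 1.29, Atf5 at 0.63 to 1.11, Camk2n1 at 0.56 to 1.05 and Glul at 0.55 to 0.97.

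**Figure D2:**
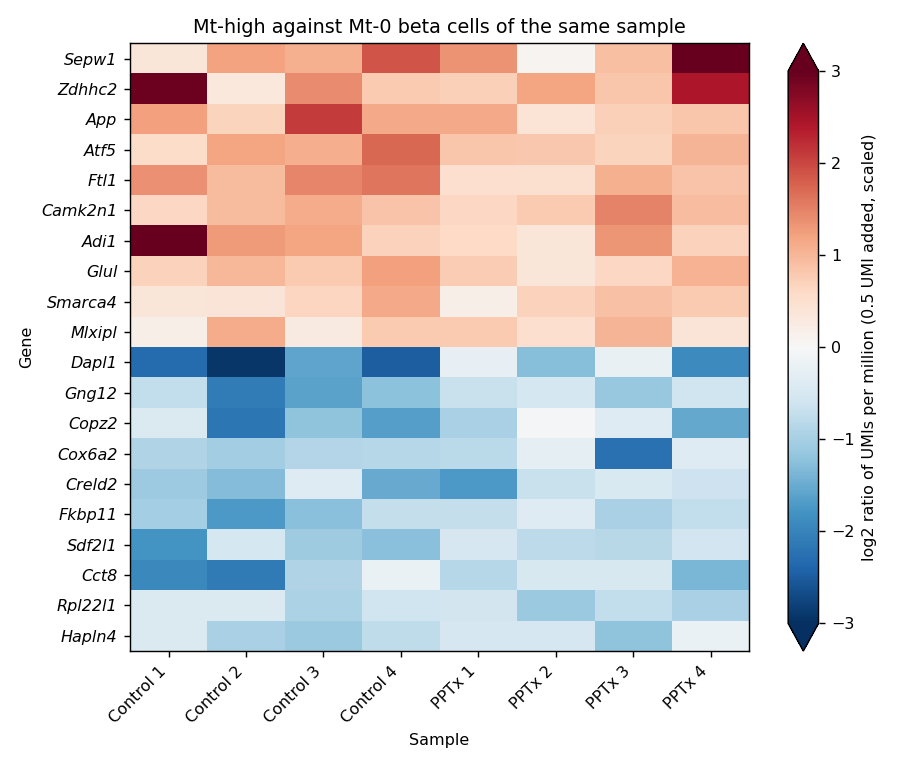
Log2 ratio of Mt-high over Mt-0 cells (colour, with 0.5 UMI added in proportion to each sum) in the 8 samples (columns) for the 10 called genes with the largest increase and the 10 with the largest decrease (rows). By the rule that named them, each gene has 1 direction in all samples. Adi1 is at 3.18 in control replicate 1 and at 0.37 to 1.33 in the other samples.

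Among the 10 called genes with the largest decrease that were lower in all 8 samples, Dapl1 and Gng12 led. Dapl1, a gene of immature β-cells, was at 148, 935, 676 and 630.4 CPM in the Mt-0 and at 0, 114, 223 and 109.6 in the Mt-high cells of control replicates 1 to 4. In PPTx replicates 1 to 4 it was at 798, 833, 849 and 1344 in the Mt-0 and 669, 345, 728 and 352 in the Mt-high cells. It was lower in 8 of 8 samples and fell by 1.15 ± 0.15 on the log2 scale (SE, adjusted p = 1.43e-09). Gng12, a G-protein γ subunit, went from 1978 ± 396 (SD, n = 8) to 968 ± 369 (SD, n = 8) CPM and fell by 1.01 ± 0.11 on the log2 scale (SE, adjusted p = 2.2e-13). Copz2 of the coatomer (-0.89), Cox6a2 of cytochrome oxidase (-0.87), Cct8 of the cytosolic chaperonin (-0.78), the ribosomal protein gene Rpl22l1 (-0.76) and the matrix link protein gene Hapln4 (-0.73) were lower on the log2 scale. Without control replicate 3, Copz2 (adjusted p = 0.0561), Cct8 (adjusted p = 0.0654) and Hapln4 (adjusted p = 0.0766) did not pass. With the sets chosen on thinned cells, Copz2 (adjusted p = 0.247) and Rpl22l1 (adjusted p = 0.0771) did not. Creld2, Sdf2l1 and Fkbp11, the remaining 3, belong to the ER and are described with it.

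Pdyn and Nucb2 were named after their values were seen, since Pdyn had no UMI in control replicate 1 and Nucb2 was lower in 7 of 8 samples. Pdyn encodes prodynorphin, a precursor of opioid peptides. It was at 0, 384, 494 and 454 CPM in the Mt-0 and 0, 0, 121 and 13.7 in the Mt-high cells of control. In PPTx it was at 272, 361, 237 and 126 in the Mt-0 and 63.1, 94.0, 56.0 and 19.6 in the Mt-high cells. It was lower in the 7 samples that had any and fell by 2.38 ± 0.24 on the log2 scale (SE, adjusted p = 1.99e-14). Over 11 alternatives Pdyn kept its call, at a log2 fold change from -2.54 to -1.08. At 3000 UMIs per cell, 60 of 299 Mt-0 and 12 of 197 Mt-high cells had a Pdyn UMI, against 0.877% of 228 islet cells outside the β-cell rule. The median depths were 6421, 6341 and 5032 UMIs, and the means over samples without thinning were 25.8% and 8.89%. Nucb2, which encodes the precursor of nesfatin, fell by 1.22 ± 0.14 on the log2 scale (SE, adjusted p = 8.35e-11).

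**Figure D3:**
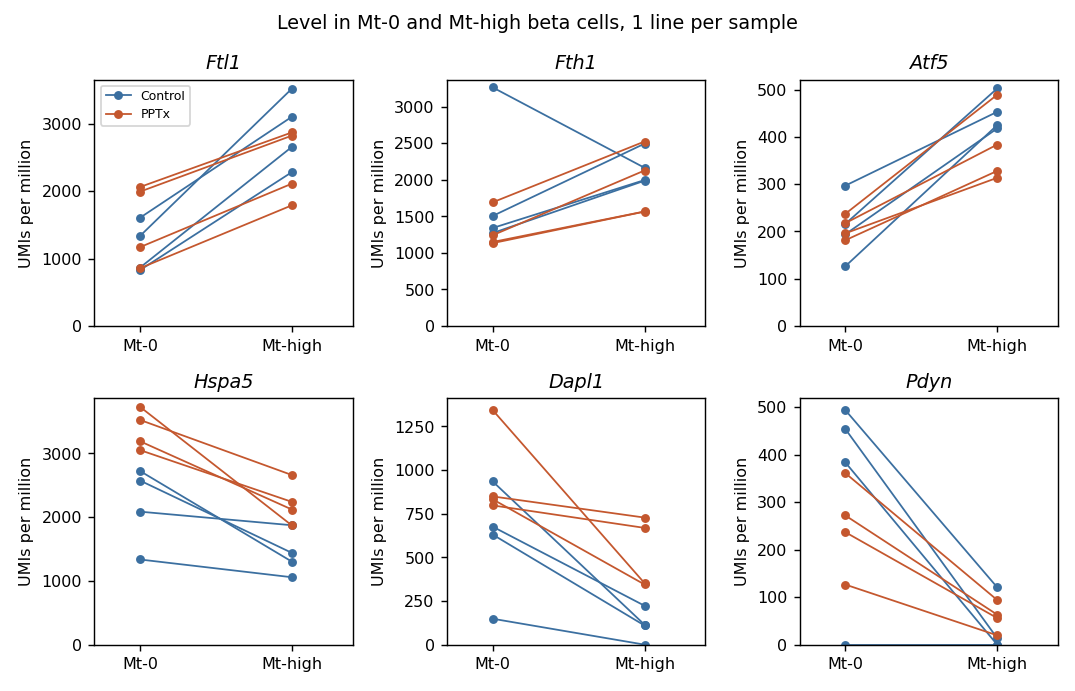
CPM of 6 genes in the Mt-0 and Mt-high β-cells, with 1 line for each control or PPTx sample. Ftl1 and Atf5 are higher and Hspa5 and Dapl1 lower in Mt-high cells of all 8 samples. Fth1 is lower in control replicate 1 alone, and Pdyn has no UMI in either set of that sample.

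Many ER chaperones, which fold newly made proinsulin and other secreted proteins, were lower in Mt-high cells, and others did not pass. Of 22 genes of ER chaperones and the unfolded protein response 21 were tested, 13 were called lower and 0 higher, beside 4.8% lower among all genes tested. The median log2 fold change of the list was -0.50. Hspa5, which encodes BiP, was at 1336, 2086, 2574 and 2723 CPM in the Mt-0 and 1057, 1873, 1439 and 1302 in the Mt-high cells of control replicates 1 to 4. In PPTx it was at 3190.1, 3052, 3730.1 and 3525 in the Mt-0 and 2119, 2239, 1869 and 2661 in the Mt-high cells. It was lower in 8 of 8 samples and fell by 0.62 ± 0.09 on the log2 scale (SE, adjusted p = 6.64e-08). The secreted factor Manf fell by 0.55 ± 0.09 on the log2 scale (SE, adjusted p = 5.21e-06), Creld2 fell by 0.82 and Sdf2l1 fell by 0.79. Of the disulfide isomerases, Pdia4 (-0.90), Pdia3 (-0.56), Pdia6 (-0.50) and P4hb (-0.40) were lower on the log2 scale. The chaperone Hsp90b1 (-0.52), the co-chaperones Dnajc3 (-0.65), Dnajb9 (-0.54) and Dnajb11 (-0.50) and the translocon component Ssr3 (-0.50) complete the 13.

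The 8 genes of the list that were not called were Xbp1 (0.07) and Atf6 (-0.07), which encode transcription factors of the response, and Canx (-0.01), Herpud1 (-0.04), Wfs1 (-0.08), Sel1l (-0.24), Calr (-0.25) and Hyou1 (-0.34). Without control replicate 3, 10 of 20 tested were lower, and Ssr3 (adjusted p = 0.0587), Pdia3 (adjusted p = 0.161) and Dnajb11 (adjusted p = 0.0951) did not pass. Pdia3 also lost its call without control replicate 4 (adjusted p = 0.151), with members chosen by Mt1 alone (-0.34, adjusted p = 0.239), with the sets chosen on thinned cells (adjusted p = 0.122) and against all other β-cells (adjusted p = 0.0828). Dnajb11 lost it on leaving out any sample but PPTx replicate 1, at adjusted p from 0.0556 to 0.177, and with DESeq2 (adjusted p = 0.106), as did Pdia3 (adjusted p = 0.067). Dnajb11 was not called without the filter on low counts, with library totals alone or against all other β-cells either (adjusted p = 0.0562, 0.0548 and 0.0696). With cells thinned to 3000 UMIs, Hsp90b1 was at -0.23 (adjusted p = 0.266) and Dnajb9 at -0.19 (adjusted p = 0.528), and neither passed.

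**Figure D4:**
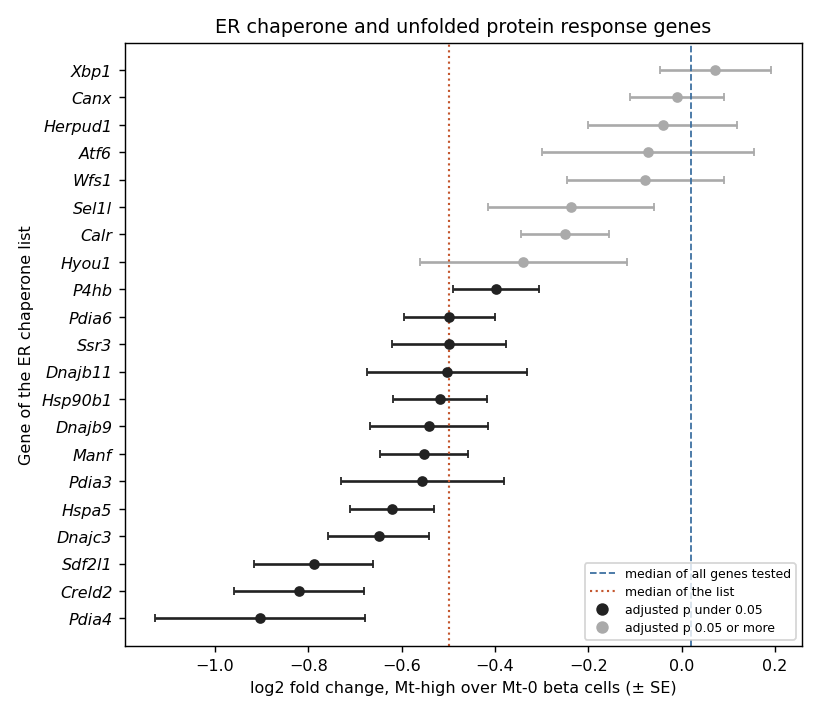
Log2 fold change of Mt-high against Mt-0 β-cells with its SE for the 21 tested genes of the ER chaperone list, marked by whether the adjusted p was under 0.05. The 13 called genes lie below 0, and the median of the list (-0.50) and of all genes tested (0.02) are drawn as lines.

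Some further genes of the ER and of proinsulin processing were lower, and others of the secretory granule were not called. Fkbp11, a folding enzyme of the ER outside the list, fell by 0.79 ± 0.13 on the log2 scale (SE, adjusted p = 3.2e-06). Ssr4 of the translocon-associated complex fell by 0.65 ± 0.09 on the log2 scale (SE, adjusted p = 3.53e-08) and Spcs1 of the signal peptidase fell by 0.60 ± 0.12 on the log2 scale (SE, adjusted p = 0.000119), each lower in 8 of 8 samples and named after the values were seen. Spcs1 was not called with cells thinned to 3000 UMIs (adjusted p = 0.172). Ero1lb, which reoxidises the disulfide isomerases, fell by 0.52 ± 0.09 on the log2 scale (SE, adjusted p = 1.63e-05). Pcsk1 and Cpe, which process proinsulin, were at -0.82 and -0.29 on the log2 scale (adjusted p = 0.000408 and 0.00516). Cpe was not called without control replicate 3 (adjusted p = 0.0742) or 4 (adjusted p = 0.0658). The convertase gene Pcsk2 (-0.16) and the granin genes Chga (-0.05), Chgb (-0.15), Scg2 (0.12), Scg3 (-0.23) and Scg5 (-0.0018) were tested and not called.

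Several promoters of this list hold the ER stress element, through which ATF6 is known to act. It was searched as CCAAT and CCACG with 9 bases between them, on both strands of the 250 bases before the start. Of all 32851 promoters, 37 (0.113%) held it. Of the 13 lower genes 12 had a promoter in the table, and 5 held the element. Of the 8 genes not called 6 had one, and 2 held the element. The window of Hspa5 is shown with both parts of the element in capitals, because the levels of Hspa5 are given above in every sample.
Hspa5, chr2:34771840-34772089, plus strand (RefSeq, GRCm38.p6): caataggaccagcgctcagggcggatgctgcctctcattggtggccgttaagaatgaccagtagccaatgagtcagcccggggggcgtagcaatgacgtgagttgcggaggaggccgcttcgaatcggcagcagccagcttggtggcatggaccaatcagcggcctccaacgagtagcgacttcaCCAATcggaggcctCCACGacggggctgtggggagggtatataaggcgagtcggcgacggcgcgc
The matches of the other genes follow, read on the strand that gives CCAAT first. Calr and Canx were not called, and the others were lower in Mt-high cells.
Creld2, chr15:88819520-88819538: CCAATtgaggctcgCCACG
Dnajc3, chr14:118937827-118937845: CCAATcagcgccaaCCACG
Hsp90b1, chr10:86705533-86705551: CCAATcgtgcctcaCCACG
Hsp90b1, chr10:86705638-86705656: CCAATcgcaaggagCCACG
Pdia6, chr12:17266491-17266509: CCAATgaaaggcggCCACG
Calr, chr8:84847075-84847093: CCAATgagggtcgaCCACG
Canx, chr11:50325800-50325818: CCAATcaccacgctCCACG
A match is a run of letters, and it occurred in genes that were lower as well as in genes that were not called.

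Few genes of zinc handling had enough UMIs to be tested. Of 24 genes of zinc transport and metal sensing, 4 were tested, 0 were called by edgeR or DESeq2 and 1 had an unadjusted p below 0.05. With 8.79% called among all genes tested, 0 of 4 says little about the list. Slc30a8, which encodes ZnT8, was at 1252 ± 544 (SD, n = 8) CPM in Mt-0 and 1204 ± 254 (SD, n = 8) in Mt-high cells, with a log2 fold change of 0.09 ± 0.10 (SE, adjusted p = 0.685). Slc39a7 (-0.35, adjusted p = 0.106), Slc39a9 (-0.08, adjusted p = 0.922) and Slc30a9 (0.23, adjusted p = 0.642) were the other tested zinc transporters. Mtf1 and Slc30a1 had too few UMIs to be tested. Mtf1 averaged 48.2 ± 25.2 (SD, n = 8) and 71.7 ± 44.9 (SD, n = 8) CPM, higher in 4 of 8 samples. Slc30a1 averaged 12.1 ± 12.0 (SD, n = 8) and 19.6 ± 16.5 (SD, n = 8), higher in 5 of 8. Mt3 had 2 and 0 UMIs in all Mt-0 and Mt-high cells, and Mt4 had 0 in both. Of 9 genes of copper handling 4 were tested, 0 were called by edgeR or DESeq2 and 1 had an unadjusted p below 0.05. At this depth, a low gene that was not tested is not shown to be absent.

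Genes of oxidative stress and other inducers were tested next. Of 28 genes of redox defence and NRF2 targets, 12 were tested, 0 were higher and 1 was lower, with a median of -0.12, beside 8.79% called and a median of 0.02 among all genes tested. The share of the list is near that of all genes. Ftl1 and Fth1, counted with iron storage, and the selenoprotein gene Sepw1 were higher but are not in this list. The lower gene was Txnip, an inhibitor of thioredoxin, at -0.53 ± 0.15 (SE, adjusted p = 0.00886) and lower in 5 of 8 samples. Without control replicate 3 it was at -0.30 and was not called (adjusted p = 0.314). Nor was it called without control replicate 4 (adjusted p = 0.108) or PPTx replicate 2 (adjusted p = 0.0737), or by DESeq2 (adjusted p = 0.284). Its log2 step was -1.20 ± 0.47 (SD, n = 4) without operation and 0.03 ± 0.71 (SD, n = 4) after PPTx, below 0 in 4 of 4 and 1 of 4 samples. The interaction test of edgeR, described at the end, gave a difference of 1.16 (adjusted p = 0.00221), which was not called without control replicate 3 (adjusted p = 0.297) or PPTx replicate 1 (adjusted p = 0.289), nor by DESeq2 (adjusted p = 0.992) or with cells thinned to 3000 UMIs (adjusted p = 0.305). Of 13 genes of the glucocorticoid response, the receptor Nr3c1 alone was tested (0.37, adjusted p = 0.365). Of 12 heat shock genes 6 were tested, and of 21 genes of inflammation 3, with 0 called in each by edgeR or DESeq2, and 2 and 0 at an unadjusted p below 0.05.

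Of 24 genes of the integrated stress response, in which ATF4 raises genes of amino acid supply, 9 were tested and 2 were higher, beside 4.0% among all genes tested. Sars, which charges the serine tRNA, was higher by 0.84 ± 0.18 (SE, adjusted p = 0.000301), and Mthfd2 of the mitochondrial folate cycle by 0.89 ± 0.24 (SE, adjusted p = 0.00827) on the log2 scale, each in 7 of 8 samples. The median of the list was 0.35, against 0.02 over all genes tested, and Atf4 itself was at 0.15 (adjusted p = 0.672). Mthfd2 was not called without control replicate 3 (adjusted p = 0.0904) or PPTx replicate 2 (adjusted p = 0.114), without the filter on low counts (adjusted p = 0.146) or with the sets chosen on thinned cells (adjusted p = 0.0899). With cells thinned to 3000 UMIs Sars was at 0.58 (adjusted p = 0.146) and was not called. Over all alternatives Sars was at 0.46 to 0.95.

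Genes of β-cell identity were tested as a list. Of 34 genes 24 were tested, 1 was higher and 3 were lower, with a median of -0.03. Among all genes tested 4.0% were higher and 4.8% lower, so 1 higher gene of 24 is near the share over all genes. Ucn3, a marker of mature β-cells, was at 1127 ± 300.0 (SD, n = 8) CPM in Mt-0 and 1494 ± 455 (SD, n = 8) in Mt-high cells, higher in 7 of 8 samples by 0.38 ± 0.10 (SE, adjusted p = 0.00424) on the log2 scale. Its adjusted p was 0.0503 without PPTx replicate 4 and 0.324 without the filter on low counts. Ero1lb, Pcsk1 and Cpe were the lower genes, while Iapp (0.01, adjusted p = 0.937), the glucose transporter gene Slc2a2 (-0.04, adjusted p = 0.923) and the transcription factor gene Nkx6-1 (-0.34, adjusted p = 0.227) did not pass. Of 18 genes of immature or dedifferentiated β-cells 3 were tested, and Dapl1 and Gc were lower. Gc, the vitamin D binding protein, fell by 1.30 ± 0.22 on the log2 scale (SE, adjusted p = 4.19e-06), lower in 7 of 8 samples. At 3000 UMIs per cell a Gc UMI was present in 26.4% of Mt-0 and 9.14% of Mt-high cells, against 65.4% of islet cells outside the β-cell rule, at the median depths given for Pdyn. Gc is also a gene of α-cells, whose markers summed to less in the Mt-high than in the Mt-0 cells of 8 of 8 samples, and their part in the Gc level was not tested. Pyy was at -0.30 (adjusted p = 0.28) over both groups, and its step in each is given with the interaction test.

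Further called genes came from lists with few tested genes. Of the hypoxia list 1 of 3 tested genes was higher, of the immediate early genes 1 of 2 and of the nuclear RNAs 2 of 3. Among all genes tested 4.0% were higher. Aldoa, Bnip3, Fos and Meg3 were the tested genes of these lists that were not called. Vegfa of the hypoxia list was higher by 0.50 ± 0.13 (SE, adjusted p = 0.00785) and Btg2, an immediate early gene, by 0.59 ± 0.18 (SE, adjusted p = 0.0208) on the log2 scale. The nuclear RNAs Malat1 (0.42, adjusted p = 0.0242) and Neat1 (0.49, adjusted p = 0.0299) were higher too. Vegfa was not called against all other β-cells (0.27, adjusted p = 0.155) or without the filter on low counts (0.39, adjusted p = 0.329). Malat1 and Neat1 can vary with RNA quality, whose part in the other calls was not tested. Without control replicate 4, Btg2 (adjusted p = 0.103), Malat1 (adjusted p = 0.246) and Neat1 (adjusted p = 0.158) were not called. Leaving out PPTx replicate 1 ended the same calls (adjusted p = 0.0646, 0.0577 and 0.0635). Btg2 and Malat1 also lost theirs without PPTx replicate 2 (adjusted p = 0.101 and 0.0611), Malat1 without PPTx replicate 4 (adjusted p = 0.0833), and Neat1 without control replicate 3 (adjusted p = 0.105) or PPTx replicate 3 (adjusted p = 0.0986). Btg2, Malat1 and Neat1 were not called by DESeq2 (adjusted p = 0.0646, 0.113 and 0.106), without the filter on low counts (adjusted p = 0.49, 0.631 and 0.583) or with the sets chosen on thinned cells (adjusted p = 0.226, 0.176 and 0.469). Against all other β-cells Btg2 (adjusted p = 0.1) and Neat1 (0.25, adjusted p = 0.346) did not pass either. Nor did Neat1 with cells thinned to 3000 UMIs (0.29, adjusted p = 0.464) or members of at least 3000 UMIs (adjusted p = 0.0587), and Btg2 with members chosen by Mt1 alone (0.39, adjusted p = 0.204) or Gcg, Sst and Ppy each under 1% (adjusted p = 0.0516).

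Markers of other cell types were measured in both sets. The endothelial list summed to at most 50.5 CPM in any Mt-high set and 24.0 in any Mt-0 set, and Pecam1, Cdh5, Flt1, Cd34 and Tie1 were at 0. The immune list of 9 genes summed to 45.7 to 137 CPM in Mt-high and 0 to 112 in Mt-0 sets. Its UMIs were mostly of C1qa (26 in Mt-high and 38 in Mt-0 cells) and Fcer1g (11 and 15), while Ptprc, Lyz2, Tyrobp and Laptm5 were at 0, as were the 5 erythroid markers. The acinar list of 14 genes summed to 0 to 489 CPM in Mt-high and 0 to 427 in Mt-0 sets, with Prss1 at 0. The 6 α-cell markers other than Gcg summed to 2804 to 4793 and 3858 to 4932 CPM, mostly Ttr. Ttr, which β-cells express too, fell by 0.31 on the log2 scale (adjusted p = 0.00538) and was not called without control replicate 3 (adjusted p = 0.0721) or with cells thinned to 3000 UMIs (adjusted p = 0.0714) or the sets chosen on such cells (adjusted p = 0.0506). Their part in the other results was not tested.

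Among 8 ductal markers, Clu was called at 0.81 (adjusted p = 0.0085) but was higher in 3 of 8 samples. It was at 101, 114, 121 and 164 CPM in the Mt-high cells of control and at 2220.3, 149, 257 and 215 in those of PPTx replicates 1 to 4. PPTx replicate 1 stood apart. Without that sample the value was -0.16 (adjusted p = 0.747), so the call rests on it. DESeq2 did not call it (adjusted p = 0.891). Krt18, the other tested gene of the list, was at -0.07 (adjusted p = 0.867), with 154 UMIs in Mt-high and 244 in Mt-0 cells. Spp1 had 68 UMIs in Mt-high and 18 in Mt-0 cells, Krt19 had 4 and 0, and Cftr had 0 in both. The 8 markers summed to 334 to 3646 CPM in Mt-high and 360 to 885 in Mt-0 sets. Their medians were 573 and 613 CPM, with the sum higher in Mt-high cells of 4 of 8 samples.

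PPTx was compared with control within the Mt-high cells. Those of PPTx held less Mt1 and Mt2, so effects of the operation and of the Mt level cannot be told apart. The 8 higher genes were Pyy, Dapl1, Pdia6, Sdf2l1, Fkbp11, Gpx3, Rgs2 and Gng12. Of 1579 genes tested, 12 (0.76%) passed with edgeR, 8 higher and 4 lower, and 155 had an unadjusted p below 0.05. DESeq2 called 10 of the 12 and gave no adjusted p for Msln and Cacna2d1. Of the 12 genes, 2 were called without control replicate 3, and 6 without control replicate 2, control replicate 4, PPTx replicate 1 or PPTx replicate 3. In simulated data of this design, 49.4% of genes changed by 1 on the log2 scale were recovered, so changes of that size can be missed.

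Pyy, which encodes peptide YY, had the largest increase of the 12. It was at 151, 457, 130.0 and 95.9 CPM in control and at 2006, 987, 1343 and 646 in PPTx replicates 1 to 4, with no overlap (log2 fold change 2.73, SE 0.36, adjusted p = 2.05e-05). Ppy, the hormone of PP-cells and a gene of the rule, moved with it. It was at 350.1, 454, 212 and 585 CPM of non-insulin UMIs in the Mt-high cells of control and 5779.8, 2422, 848 and 1149 in those of PPTx. At 3000 UMIs per cell 96.9% of islet cells outside the β-cell rule had a Pyy UMI, against 23.9% of the Mt-high cells. The part of RNA from those cells in the Pyy level was not tested. Dapl1 was at 112 ± 91.0 (SD, n = 4) CPM in control and 523 ± 203 (SD, n = 4) in PPTx, again without overlap (log2 fold change 1.87, SE 0.36, adjusted p = 0.00718). Both genes were named by a rule that asks for no overlap. Pyy and Dapl1 were called whichever sample was left out. They were the 2 called of 3 tested genes of the immature β-cell list, beside 0.507% higher among all genes tested, and Pyy was also the 1 tested marker of PP-cells.

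Of 19 tested genes of the ER chaperone list 2 were higher after PPTx and 0 lower, beside 0.507% higher and 0.253% lower among all genes tested, with a median of 0.46 against -0.01 over all genes tested. Pdia6 was at 1107, 754, 938 and 740.0 CPM in control and at 1829, 1762, 1534 and 1487 in PPTx replicates 1 to 4 (log2 fold change 0.95, SE 0.19, adjusted p = 0.00718). Sdf2l1 was at 101 to 288 in control and 430.4 to 681 in PPTx (log2 fold change 1.10, SE 0.27, adjusted p = 0.0447). Fkbp11, outside the list, was at 159.9 to 233 and 414 to 643 (log2 fold change 1.35, SE 0.27, adjusted p = 0.00718). By the rule that named them, the groups did not overlap in any of these genes. Without control replicate 3, Pdia6 (adjusted p = 0.0595) and Fkbp11 (adjusted p = 0.0736) were not called, and Pdia6 also missed without control replicate 4 (adjusted p = 0.0528). With cells thinned to 3000 UMIs Pdia6, Sdf2l1 and Fkbp11 were not called (adjusted p = 0.123, 0.323 and 0.376). Sdf2l1 lost its call on leaving out 6 of the 8 samples, all but PPTx replicates 2 and 4, at adjusted p from 0.0659 to 0.174. Hspa5 was at 0.62 (adjusted p = 0.129) and did not pass. The Mt-0 cells were higher after PPTx in Pdia6, Sdf2l1 and Fkbp11 too, again without overlap, so the rise was not particular to Mt-high cells. In Mt-0 cells Pdia6 was at 1039 to 1663 CPM in control and 1992 to 2311 in PPTx. Sdf2l1 was at 336 to 611 and 648 to 961 there, and Fkbp11 at 387 to 551 and 705 to 1060. PPTx was not tested against control within Mt-0 cells. The interaction test given below did not call Pdia6, Sdf2l1 or Fkbp11.

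**Figure D5:**
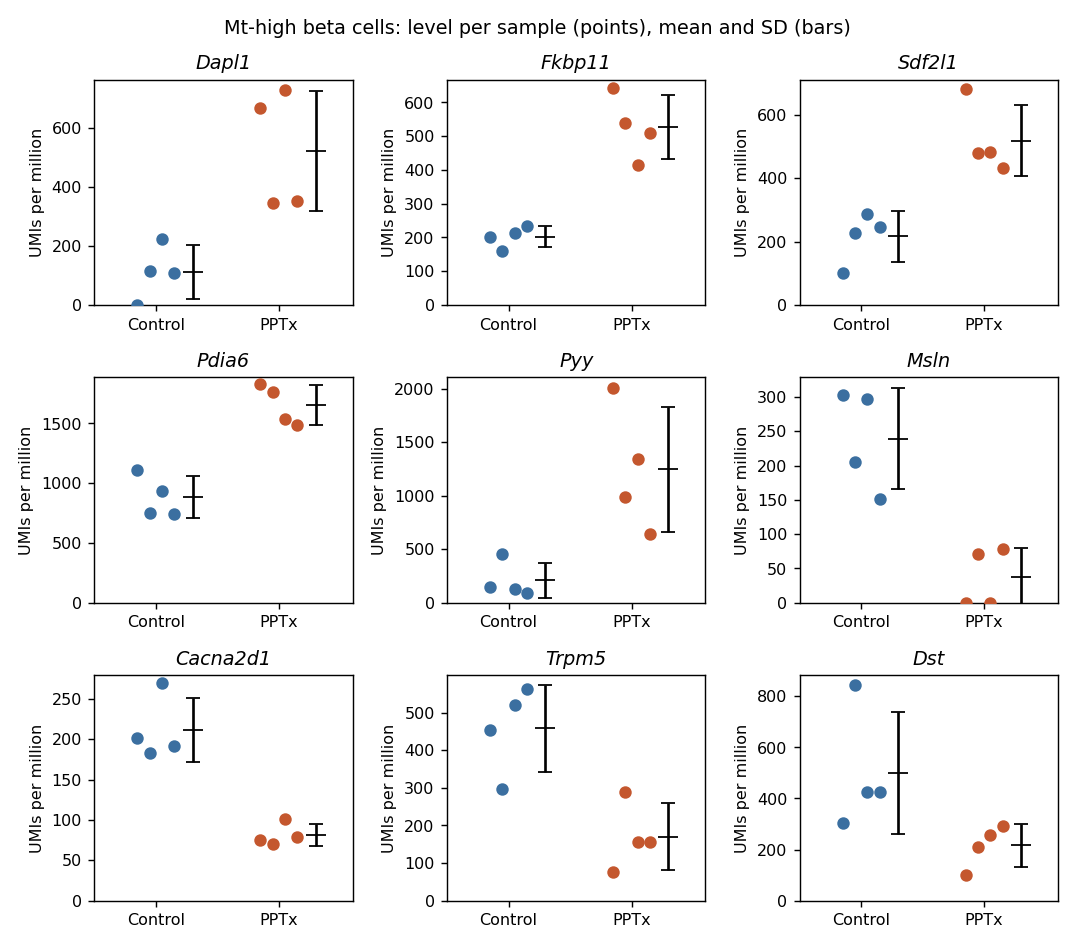
CPM in the Mt-high β-cells of 4 control and 4 PPTx samples for the 9 named genes, each axis from 0. Each point is a sample, and the bars give mean and SD. By the rule that named these genes, the groups do not overlap in any panel.

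The 4 lower genes were Msln, Trpm5, Cacna2d1 and Dst. Msln, which encodes mesothelin, was at 302, 206, 297 and 151 CPM in control and 0, 70.5, 0 and 78.3 in PPTx replicates 1 to 4 (log2 fold change -2.60, adjusted p = 0.00899). It was not called without control replicate 3 (adjusted p = 0.208). Trpm5, a cation channel of β-cells, was at 297 to 562 in control and 75.7 to 289.7 in PPTx (log2 fold change -1.38, adjusted p = 0.0265). It lost its call without control replicate 3 or 4 or PPTx replicate 1 or 3, at adjusted p from 0.0659 to 0.131. The calcium channel subunit gene Cacna2d1 fell by 1.43 and the cytoskeletal linker gene Dst fell by 1.25 on the log2 scale (adjusted p = 0.0447 and 0.0447). Cacna2d1 lost its call on leaving out any of the 8 samples (adjusted p from 0.0544 to 0.398), and Dst on leaving out any but control replicate 1 and PPTx replicate 4 (adjusted p from 0.0659 to 0.306). Neither was called without the filter on low counts (adjusted p = 0.415 and 0.138). Cacna2d1 was not called with members of at least 3000 UMIs (adjusted p = 0.0724), nor Dst with cells thinned to 3000 UMIs (adjusted p = 0.26). Gpx3 (1.65), Rgs2 (1.09) and Gng12 (0.85) were the other higher genes, named after their values were seen. Leaving out 1 sample ended the call of Gng12 in 6 of 8 cases (adjusted p from 0.0715 to 0.216), of Gpx3 in 6 (adjusted p from 0.0544 to 0.285) and of Rgs2 in 4 (adjusted p from 0.075 to 0.19). With cells thinned to 3000 UMIs Rgs2 was at 0.67 (adjusted p = 0.599) and Gng12 at 0.82 (adjusted p = 0.323). Members of at least 3000 UMIs alone ended both calls (adjusted p = 0.0744 and 0.0517). Gng12 was not called with library totals alone either (adjusted p = 0.0543).

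Whether the step from Mt-0 to Mt-high cells differed between control and PPTx was tested as an interaction. Mt-high cells held 3713 to 5526 CPM of Mt1 and Mt2 in control and 1355 to 2805 in PPTx. The step thus spans a smaller Mt difference after PPTx, and its effect cannot be told apart from that of the operation. Of 2280 genes tested, 11 (0.482%) passed with edgeR, 6 higher and 5 lower in PPTx, and 152 had an unadjusted p below 0.05. DESeq2 called 0, with 86 at an unadjusted p below 0.05. Of the 11 genes, 2 were called without control replicate 3, 5 without control replicate 4 or PPTx replicate 1, and 7 without control replicate 2, PPTx replicate 2 or PPTx replicate 3. In simulated data of this design, 27.6% of genes that differed by 1 on the log2 scale were recovered.

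The 11 genes were Pyy, Dapl1, Gng12, Txnip, Ftl1, Clu, Cacna2d1, Gpx3, Msln, Mrpl52 and Cd63, of which the first 7 were named here after their values were seen. Pyy had a log2 step of 2.33, -0.59, -2.37 and -2.51 in control and -0.71, 0.47, 1.47 and -0.62 in PPTx replicates 1 to 4, so the groups overlapped. Its fitted difference was 1.84 (adjusted p = 1.84e-08), called whichever sample was left out, but not by DESeq2 (adjusted p = 0.999). With the replicate numbers as a block it was 0.50 (limma, adjusted p = 0.928). Dapl1 was lower in the Mt-high cells of all 8 samples, with a step of -2.32 ± 0.55 (SD, n = 4) without and -0.91 ± 0.82 (SD, n = 4) after PPTx, a difference of 1.29 (adjusted p = 0.00518). Gng12 too was lower in all 8, at -1.42 ± 0.58 (SD, n = 4) and -0.74 ± 0.27 (SD, n = 4), a difference of 0.76 (adjusted p = 0.0181). Leaving out 1 sample ended the call of Dapl1 in 4 of 8 cases (adjusted p from 0.13 to 0.302) and of Gng12 in 5 (adjusted p from 0.0824 to 0.365). With cells thinned to 3000 UMIs the difference was 0.80 for Dapl1 (adjusted p = 0.757) and 0.60 for Gng12 (adjusted p = 0.634). The log2 step of Ftl1 was 1.35 ± 0.29 (SD, n = 4) without and 0.72 ± 0.28 (SD, n = 4) after PPTx, a fitted difference of -0.77 (adjusted p = 0.00285). It was thus higher in the Mt-high cells of both groups, by less after PPTx. Without control replicate 3, control replicate 4 or PPTx replicate 2 the adjusted p was 0.159, 0.423 and 0.229, and it was 0.0542 without the filter on low counts and 0.311 with cells thinned to 3000 UMIs. For Hspa5 the difference of the step was 0.08 (adjusted p = 0.983), and its level was lower in the Mt-high cells of 4 of 4 control and 4 of 4 PPTx samples.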

How the data were processed

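Islet cells of 4 control and 4 PPTx samples were analysed from 8 tables of UMI counts per gene and cell. The authors deposited these counts without normalization, after alignment to mm10 and UMI counting with Cell Ranger according to the methods; the methods name a filtering step before UMI counting, whose settings are not given in the sources used here. The methods name a ddSEQ library kit and the labels a Chromium kit. Cells had at least 2005 UMIs. Mitochondrially encoded genes were not analysed here. The rule, members and gene lists were chosen with earlier results of these data known. No doublet caller was run; cells with 5% or more of a second hormone or over 20000 UMIs were left out of the β-cells.

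UMIs were summed per sample and set (at least 5 cells) without Mt1, Mt2, Ins1, Ins2, Gcg, Sst and Ppy. The sums were tested with edgeR 4.0.16 (quasi-likelihood, TMM, filterByExpr) in R 4.3.3, with the sample as a block for Mt-high against Mt-0 cells and in the interaction, and with Benjamini-Hochberg adjustment over all genes tested. DESeq2 1.42.0, limma 3.58.1, other filters and scalings, thinning, other choices of cells and leaving out each sample were alternatives. Levels were compared by exact permutation tests (scipy 1.17.1). Log2 steps per sample used 0.5 UMI added in proportion to each total. On simulated data, changes of 1 on the log2 scale were recovered in 98.8% of tested genes for Mt-high against Mt-0 cells, where 4 unchanged genes were called among 1456 genes tested. In a simulation with no changed gene 0 were called. Named genes were the 10 called genes each way with the largest fold change, log2 CPM of at least 5 and 1 direction in all samples, and every called gene of a list. Between groups they were up to 5 called genes each way without overlap; genes named otherwise are marked in the text. Counts of cells with a UMI were pooled over samples and carry counting error and the spread between samples. Promoters came from RefSeq (GRCm38.p6).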

Additional observations from a re-analysis of the deposited data

Results flagged for a closer look

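Of 69 groups of samples checked for a sample far from the rest, of which chance gives about 1 in 20, 9 had one. Pyy in the Mt-high cells of control replicate 2 was at 457 CPM, against 95.9 to 151 in the other control samples. The log2 step from Mt-0 to Mt-high cells was far from the other 7 samples in 4 genes of control replicate 1, whose Mt-0 set holds 5 cells. Adi1 was at 3.18 there (0.37 to 1.33 in the others). Hsp90b1 was at 1.09 there (-0.91 to -0.25 in the others). Dnajc3 was at 0.42 there (-1.15 to -0.45 in the others). Fth1 was at -0.58 there (0.45 to 0.78 in the others). In control replicate 2, Dnajb9 was at -2.20 (-0.98 to -0.05 in the others). In PPTx replicate 1, Ucn3 was at -0.30 (0.27 to 0.70 in the others). In PPTx replicate 1, Clu was at 3.01 (-1.27 to 0.45 in the others). In PPTx replicate 3, Cox6a2 was at -2.23 (-1.04 to -0.30 in the others).

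In 11 genes the step from Mt-0 to Mt-high cells differed between PPTx and control by the interaction test of edgeR. Gpx3, Msln, Mrpl52 and Cd63 were named by a rule that asks for no overlap of the groups. Gpx3 differed by 1.84 (adjusted p = 0.00108, with 5.02e-05 to 0.84 over the alternatives). It was not called without control replicate 3 (adjusted p = 0.0882). Msln differed by -2.85 (adjusted p = 0.00221, with 0.00095 to 0.84 over the alternatives). It was not called without control replicate 3 or PPTx replicate 3 (adjusted p = 0.288 and 0.109). Mrpl52 differed by -1.70 (adjusted p = 0.0222, with 0.0214 to 0.84 over the alternatives). It was not called without control replicate 2, control replicate 3, control replicate 4, PPTx replicate 1, PPTx replicate 3 or PPTx replicate 4 (adjusted p = 0.138, 0.0728, 0.544, 0.13, 0.109 and 0.0824). Cd63 differed by -0.79 (adjusted p = 0.00588, with 0.00462 to 0.84 over the alternatives). It was not called without control replicate 3, control replicate 4 or PPTx replicate 2 (adjusted p = 0.0659, 0.302 and 0.148). Thinning the cells to 3000 UMIs ended the calls of Gpx3, Clu and Txnip (adjusted p = 0.305, 0.305 and 0.305). Without the filter on low counts Mrpl52, Cd63, Gng12 and Dapl1 were not (adjusted p = 0.255, 0.159, 0.11 and 0.051), nor was Mrpl52 with members of at least 3000 UMIs (adjusted p = 0.0723). DESeq2 called none of the 11. Gpx3 encodes a secreted glutathione peroxidase, Mrpl52 a protein of the mitochondrial ribosome and Cd63 a protein of late endosomes. The difference of Cd63 was between 2 steps of the same direction, since it was higher in the Mt-high cells of 8 of 8 samples, by 0.52 ± 0.11 (SE, adjusted p = 0.000137) on the log2 scale. The other differences were 1.84 for Pyy, 1.84 for Clu, 1.29 for Dapl1, 1.16 for Txnip, 0.76 for Gng12, -0.77 for Ftl1 and -1.85 for Cacna2d1. Without PPTx replicate 1 Clu was at 0.51 (adjusted p = 0.986), and without control replicate 3 or 4 it was not called either (adjusted p = 0.2 and 0.145). Cacna2d1 lost its call without the filter on low counts (adjusted p = 0.342), with library totals alone (adjusted p = 0.058), with members of at least 3000 UMIs (adjusted p = 0.0793) and on leaving out any of 7 samples, all but control replicate 1 (adjusted p from 0.0847 to 0.416).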

How the results depend on the processing

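The lower metallothionein level of β-cells after PPTx kept its direction under all alternatives, from -1302 to -891 CPM when 1 sample was left out (exact permutation test, p = 0.0571, the smallest possible). The replicate numbers were taken as a block for a paired analysis, although same-numbered samples correlated at only 0.037 to 0.173 and best with their own number in replicates 3 and 4 alone, so the numbers are no pairing by design. With this block the level differed by -1094 CPM (exact permutation test, p = 0.125, the smallest that 4 pairs allow), the comparison of PPTx with control within Mt-high cells called 23 genes, and the difference of the step 0 (limma, 76 at an unadjusted p below 0.05). The share of β-cells without a Mt UMI differed by 19.7 points at 2000 UMIs (exact permutation test, p = 0.0286) and by 11.9 to 20.4 when 1 sample was left out.

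Genes called between Mt-high and Mt-0 cells numbered 93 with DESeq2, 50 of 485 tested with cells thinned to 3000 UMIs, and 79 to 144 when 1 sample was left out. Within Mt-high cells, PPTx gave 1 of 481 tested after thinning and 2 to 11. The difference of the step gave 0 with DESeq2, 5 without a filter, 2 after thinning and 2 to 11. The ER list had 8 of 13 tested lower after thinning and 10 to 13 when 1 sample was left out. Of 880 values for the 54 named genes called between the cell sets, 798 kept their call, 81 lost it and 1 reversed, Clu at -0.16 without PPTx replicate 1 (-0.16 to 1.04 when 1 sample was left out). For PPTx within Mt-high cells 56 of 161 values lost the call, and for the difference of the step 73 of 151. Fewer UMIs and genes remain after thinning; other causes were not tested.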

Other observations

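Hexa, Lamp2 and Prlr, chosen after their values were seen, were also called between the cell sets by edgeR. Hexa, a lysosomal hydrolase, was higher in Mt-high cells by 0.64 ± 0.16 (SE, adjusted p = 0.00339) on the log2 scale, in 8 of 8 samples. Lamp2, a lysosomal membrane protein, was higher by 0.62 ± 0.16 (SE, adjusted p = 0.00402), in 6 of 8. Without control replicate 3 neither passed (adjusted p = 0.0963 and 0.0766), nor without the filter on low counts (adjusted p = 0.103 and 0.135) or with the sets chosen on thinned cells (adjusted p = 0.0781 and 0.122, with Lamp2 at 0.38). Lamp2 was not called with cells thinned to 3000 UMIs (adjusted p = 0.147). Prlr, the prolactin receptor, fell by 0.56 ± 0.11 on the log2 scale (SE, adjusted p = 3.89e-05), in 7 of 8 samples.

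No gene of a list of 18 S-phase and mitotic markers had enough UMIs to be tested. The list summed to 95.9 to 861 CPM in the Mt-0 and 391 to 1208 in the Mt-high sets, higher in 7 of 8 samples with overlapping ranges. At 3000 UMIs per cell a Top2a UMI was present in 7 of 197 Mt-high and 5 of 299 Mt-0 cells, and in 1.75% of islet cells outside the β-cell rule. A Mki67 UMI was present in 4 and 2 cells.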
